A study of Rattus norvegicus with 176 samples.

Results

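Long-chain acyl-CoA synthetases were followed in rat liver through 4 genes, Acsl1, Acsl3, Acsl4 and Acsl5, of the 10411 genes with a probe set on the array. They were taken by gene symbol from the array's annotation, and held 5 of the 15922 probe sets. Acsl1 had 2 probe sets, 1370939_at and 1388153_at, and the one with the higher mean log2 signal over all arrays (1370939_at) stood for the gene. Acsl3 (1368177_at), Acsl4 (1387101_at) and Acsl5 (1386926_at) had 1 probe set each. All 5 passed the filter on dim probe sets.

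The study is a long-term experiment with clofibric acid (CA) in rats of the inbred F344 strain, in which total RNA of 176 liver sections was hybridised to Affymetrix arrays. Untagged sections, 1 per rat, formed 30 groups. The control, CA, DEN and DEN-CA arms had 5 rats each at 5 times, labelled 5j, 1m, 3m, 9m and 12m, and the first 2 arms 5 more at 18m. DEN is the usual abbreviation of the liver carcinogen diethylnitrosamine, and DEN-CA rats carried the names of both agents. A further 5 control and 5 DEN rats were labelled with the time -8, without a unit. These controls were named CtrlDEN, where the other controls were named Ctrl, and were taken as controls. The label rev was carried by 4 CA and 3 control rats at 18m, and at 12m by 6 rats of the DEN arm, 5 of DEN-CA and 4 controls; 6 CA rats were labelled 18 without a unit. Sections tagged TU (23, from 9 CA and 7 DEN-CA rats) and PERI (5, from 5 of these rats) came from rats that also had an untagged section. The labels do not spell out j, rev, TU, PERI or the B suffix of 46 untagged arrays, and the titles name 5000 ppm CA even for controls, so arms were taken from their names alone. Sex, age and the schedule of DEN are not given in the sources used here.

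An acyl-CoA synthetase joins a free fatty acid to coenzyme A at the expense of ATP, and only the resulting acyl-CoA can be oxidised, stored in triglyceride or built into phospholipid. The family members handle overlapping chain lengths but sit on different membranes. Acsl1 is the abundant form of liver, fat and heart, lies on the outer mitochondrial membrane and the endoplasmic reticulum, and is a classical target of PPARalpha, the nuclear receptor activated by fibrates such as CA. Acsl3 lies on the endoplasmic reticulum and on growing lipid droplets. Acsl4 prefers arachidonic acid and other polyunsaturated fatty acids and is known for its part in ferroptosis. Acsl5 is found on mitochondria and endoplasmic reticulum of liver and intestine and is known as a target of insulin through the transcription factor SREBP-1c.

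The 250 bases before the annotated starts of Acsl3 and Acsl5 are shown because these isoforms differed in opposite directions under the drug. They come from RefSeq's GRCr8 assembly and are written 5′ to 3′ on the strand of the gene, with GC boxes (GGGCGG on either strand) in capitals. All 4 members were matched by symbol in the promoter table.
Acsl3, chr9:87563351-87563600, plus strand: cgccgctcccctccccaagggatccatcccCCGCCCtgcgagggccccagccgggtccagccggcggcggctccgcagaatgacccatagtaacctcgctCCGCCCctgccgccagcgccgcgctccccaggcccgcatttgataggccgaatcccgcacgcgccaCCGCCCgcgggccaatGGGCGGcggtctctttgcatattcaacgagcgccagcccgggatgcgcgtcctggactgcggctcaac
Acsl5, chr1:264294601-264294850, plus strand: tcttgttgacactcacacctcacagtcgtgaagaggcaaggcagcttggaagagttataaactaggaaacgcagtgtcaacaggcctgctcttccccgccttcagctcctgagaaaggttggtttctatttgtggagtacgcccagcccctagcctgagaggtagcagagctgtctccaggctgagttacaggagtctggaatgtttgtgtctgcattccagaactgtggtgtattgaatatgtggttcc
The Acsl3 window had a GC content of 72.4% and held 4 GC boxes, which began 220, 150, 84 and 68 bases before the start, and 1 CCAAT. The Acsl5 window had a GC content of 50.4%, no GC box and 1 TATAAA, 195 bases before the start. Over the 33469 windows of the table, searched on both strands, 30.5% held a GC box, 34% held CCAAT and 12.9% held TATAAA. The element read by PPARalpha is a direct repeat of AGGTCA with 1 base between the copies, AGGTCANAGGTCA. An exact copy was present in 0.0508% of the windows and a copy with up to 2 mismatches in 3.15%, but in none of the 4 member windows, and a single AGGTCA, present in 14.1% of windows, was not in them either. No match says only that these letters are not in this window. The windows of Acsl1 and Acsl4, on the minus strand, lie wholly and partly inside the annotated gene spans, at chr16:52532393-52532642 and chrX:110803262-110803511, so the table used starts other than the outermost ones. The genes extend over chr9:87563601-87613078 for Acsl3, chr1:264294851-264341943 for Acsl5, chr16:52487870-52554110 for Acsl1 and chrX:110739633-110803416 for Acsl4.

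The tissue was checked by 11 hepatocyte marker genes, whose mean untagged signals lay from the 94.3rd percentile of the probe sets (Tat) to the top (Alb). Signals below are the deposited intensities with each array scaled to a median of 99.4, since array medians ran from 25.4 to 187. Differences are log2 differences after adding an offset of 25, with a standard error (SE), from limma fits over all probe sets that passed the filter, and adjusted p-values are Benjamini-Hochberg values over all of them with 0.05 as the threshold. A fold on this scale understates the change of a dim gene. Rats carried separate numbers, so each untagged value is a separate animal. In these bulk sections, fewer cells of a type and less RNA per cell cannot be told apart. CA rat 4137 stood apart once the data were seen, and no rule set in advance singled it out. Acsl1, Acsl4 and Acsl5 were higher in its TU than in its untagged section and Acsl3 was lower, against the sense of the mean over the CA rats for all 4 genes. Over the tested probe sets, the deviations of its untagged and TU sections from the means of their arm correlated at -0.56, the lowest of the 16 rats, the others lying between -0.01 and 0.47. Whether the 2 sections were exchanged cannot be told from the labels and was not tested. Results that rest on this rat are given with and without it.

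Acsl3 was the isoform with the largest difference under CA. In control rats at 5j its signal was 39.6, 44.3, 46.1, 64.6 and 89.9, and in CA rats at 5j it was 164, 220.1, 271, 285 and 535. Every CA rat was above every control rat. The difference was 1.90 ± 0.24 (SE, n = 5 rats per group) on the log2 scale, a 3.74-fold rise (limma, adjusted p = 8.5e-10), in a comparison that called 11.2% of all tested probe sets. The same separation was present at each later time. At 1m controls lay between 44.1 and 92.0 and CA rats between 227 and 409 (log2 difference 1.87), and at 3m controls lay between 36.9 and 97.8 and CA rats between 163 and 367 (1.52). At 9m controls reached 125 and CA rats began at 263 (1.78), and at 12m they were 44.7 to 75.8 and 162 to 487 (1.73). At 18m control signals were 60.9, 73.8, 92.7, 135 and 162, and CA signals were 232, 278, 397, 410.0 and 418 (1.55). The groups overlapped at none of the 6 times, and Acsl3 rose at all 6. The share of probe sets called in these comparisons was 14.4% at 1m, 14.2% at 3m, 6.78% at 9m, 11.7% at 12m and 6.79% at 18m. Averaged over the 6 times the rise was 1.72 ± 0.10, or 3.30-fold (limma, adjusted p = 1.5e-32, with 40.2% of probe sets called). An offset of 6 gave 1.96 and an offset of 99 gave 1.20. Without rat 4137 the value at 12m was 1.52 and the mean 1.69. No difference of the CA effect between the 6 times was detected (moderated F, adjusted p = 0.95, with 1.77% of probe sets called).

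**Figure D1:**
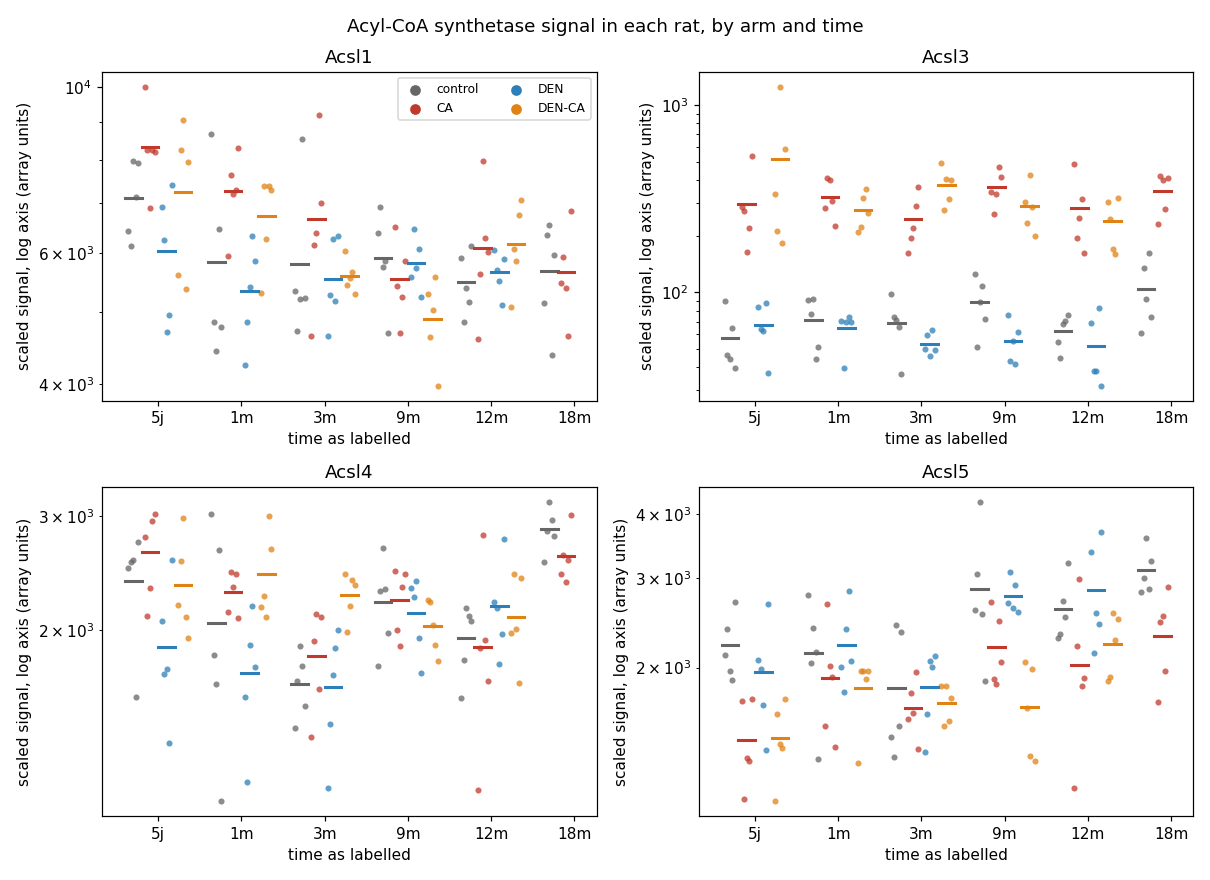
Signal of each isoform in each rat (points, array units after scaling, log axis) at the times as labelled, coloured by arm, with the group mean as a bar. In the Acsl3 panel the CA and DEN-CA rats lie from 161 upwards and apart from the control and DEN rats of the same time, while the arms overlap at most times in the other panels.

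DEN-CA rats were compared with rats given DEN alone, and Acsl3 was again higher at every time. At 3m the DEN signals were 45.5, 49.1, 49.6, 59.3 and 62.9 and the DEN-CA signals were 275, 316, 399, 405 and 491. Every DEN-CA rat was above every DEN rat, and the difference of 2.34 ± 0.24 (5.06-fold) was past the threshold (limma, adjusted p = 8.2e-14). At 5j DEN rats lay between 37.0 and 87.6, while DEN-CA rats measured 184, 214, 336, 582 and 1254 (log2 difference 2.24). Rat 4087, at 1254, had the highest Acsl3 signal of all untagged sections. The differences at 1m, 9m and 12m were 1.74, 1.95 and 1.79, and the groups overlapped at none of the 5 times. These comparisons called 10.5% of probe sets at 5j, 16.2% at 1m, 14.3% at 3m, 6.99% at 9m and 7.04% at 12m. The mean over the 5 times was 2.01 ± 0.11, or 4.03-fold (limma, adjusted p = 9.7e-35, 35.1% of probe sets called). This effect and that of CA without DEN differed by 0.25 ± 0.15 over the 5 shared times (limma, adjusted p = 0.59, 0.0403% of probe sets called), with a 95% interval from -0.06 to 0.56. The times did not separate by the F test (adjusted p = 0.67, 3.22% of probe sets called).

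Acsl3 was dim without the drug. It exceeded the 40th percentile of its own array on 36 of 78 control and DEN arrays, and on all 36 CA, 25 DEN-CA, 4 CA rev, 5 DEN-CA rev, 23 TU and 5 PERI arrays. The other isoforms exceeded it on every array. Because titles with and without the B suffix were spread over arms, the comparison was also made within each kind of array, an alternative added after the data were seen. With the suffix, Acsl3 differed by 2.16 in the 1 CA comparison that could be made and by 1.70 to 2.61 in 3 DEN-CA comparisons. Without the suffix it differed by 1.42 to 2.02 in 5 CA and by 1.79 to 1.93 in 2 DEN-CA comparisons, and all 11 were past the threshold (limma). No untagged array at 12m or 18m carried the suffix. The comparisons at those times therefore held the same rats as the main ones and say nothing about the suffix.

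Acsl5 moved the other way. Control rats at 5j measured 1888, 1973, 2120.2, 2385 and 2689.9, and CA rats 1108, 1313, 1329, 1723 and 1735. No CA rat reached the lowest control, and Acsl5 fell by 0.62 ± 0.17 on the log2 scale, 1.53-fold (limma, adjusted p = 0.0080). At the 5 later times the CA mean was also lower, with overlapping groups and differences that did not pass the test, between -0.44 at 18m and -0.09 at 3m. The value at 12m, -0.42, passed without rat 4139 (-0.57, adjusted p = 0.021) and with quantile normalisation (-0.48, adjusted p = 0.0040). That at 18m passed with quantile normalisation (-0.41, adjusted p = 0.024) and array weights (-0.43, adjusted p = 0.032), and that at 3m without scaling (-1.03, adjusted p = 0.0033). At 3m without scaling the median over all probe sets was lower too. Over the 6 times Acsl5 fell by 0.34 ± 0.07 (limma, adjusted p = 1.8e-05), and by 0.31 without rat 4137. In the DEN arms the means were lower under CA at 5 of 5 times. At 9m DEN rats measured 2572, 2617, 2675, 2897 and 3076 and DEN-CA rats 1312, 1344, 1665, 1984 and 2051. The groups did not overlap, and Acsl5 fell by 0.74 ± 0.17, or 1.67-fold (limma, adjusted p = 0.0014). The mean over 5 times fell by 0.37 ± 0.08 (limma, adjusted p = 3.4e-05), and differed from that of CA without DEN by -0.04 ± 0.11 (adjusted p = 0.93). No difference of the Acsl5 effect between times was detected for CA or for DEN-CA (moderated F, adjusted p = 0.71 and 0.45). Quantile normalisation moved the number of times called from 1 to 3 in each arm, in DEN-CA rats through 1m (-0.43, adjusted p = 0.011) and 5j (-0.45, adjusted p = 0.0082), and 5j also passed without rat 4056 (-0.52, adjusted p = 0.046). Without scaling of the arrays, the value at 9m was -0.27 (adjusted p = 0.52) and the DEN-CA mean was -0.22 (adjusted p = 0.24). Within arrays of 1 suffix class the comparisons at 12m and 18m held the same rats as the main ones. Acsl5 was lower in 10 of the 11 comparisons, none past the threshold, and was 0.17 higher at 1 time in the CA arm. DEN-CA at 9m, where Acsl5 passed in the main fit, was not among these 11. The suffix was on 4 of 5 DEN-CA and 1 of 5 DEN arrays there, so that fall could not be checked within a class. Acsl1 passed in 1 of these comparisons, DEN-CA at 1m on arrays with the suffix (0.43, adjusted p = 0.046), and Acsl4 in none.

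Acsl1, the isoform best known as a fibrate target, differed little. At 1m, the time of its largest difference, control rats measured 4437, 4776, 4841, 6457 and 8649 and CA rats 5940.2, 7206, 7294, 7633 and 8301. Rat 4011 was the highest of the 10, so the groups overlapped, and the difference was 0.36 ± 0.14 (limma, adjusted p = 0.082). The values at the 6 times ran from -0.09 to 0.36 and none passed. Their mean was 0.14 ± 0.06 with an adjusted p of 0.052 (limma), and its 95% interval, 0.02 to 0.25, lay well under the change of Acsl3. The call depended on single settings. The mean was past the threshold with array weights (0.16, adjusted p = 0.013), with a filter at the 70th percentile (adjusted p = 0.039), and when 1 of 20 rats among the 60 was left out, rat 4137 included (0.15, adjusted p = 0.028). Over all rats left out singly the adjusted p ran from 0.016 to 0.10, and without scaling the mean was -0.09 (adjusted p = 0.47). At 1m leaving out rat 4011 (0.51, adjusted p = 0.010) or 4122 (0.43, adjusted p = 0.048) brought the difference past the threshold, as did array weights (0.40, adjusted p = 0.023) and quantile normalisation (0.27, adjusted p = 0.015). At 3m the value without scaling was called with the opposite sign (-0.76, adjusted p = 0.0050), where the median of all probe sets was -0.71. The other Acsl1 probe set, 1388153_at, rose at 5j (0.42, adjusted p = 0.048) and at 1m (0.45, adjusted p = 0.026) and in the mean (0.15, adjusted p = 0.031). In DEN-CA rats the values of 1370939_at ran from -0.25 at 9m to 0.33 at 1m, and their mean was 0.09 ± 0.06 (limma, adjusted p = 0.26). That at 1m passed with array weights (0.45, adjusted p = 0.0038), without scaling (0.72, adjusted p = 0.035) and without rat 4090 (0.42, adjusted p = 0.038). The unscaled value also carries any shift shared by all probe sets. No difference between the 5 DEN-CA times was detected for Acsl1 (moderated F, adjusted p = 0.30), but the F test passed with array weights (adjusted p = 0.018).

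Acsl4 did not pass the test at any time of CA without DEN, where differences ran from -0.14 to 0.24 with a mean of 0.05 ± 0.07 (limma, adjusted p = 0.58) that was 0.08 without rat 4137. Without scaling the value at 3m, 0.13, was called with the opposite sign (-0.81, adjusted p = 0.020), again beside a median of -0.71 over all probe sets. With DEN it rose at 2 of 5 times, but no difference between the 5 times was detected (moderated F, adjusted p = 0.22, 3.22% of probe sets called). At 1m DEN rats measured 1167, 1578, 1759, 1896 and 2184 and DEN-CA rats 2093, 2169, 2261, 2665 and 3003, a difference of 0.52 ± 0.17 (limma, adjusted p = 0.020). At 3m the DEN values were 1144, 1434, 1708, 1879.5 and 2002 and the DEN-CA values 1988, 2183, 2350.0, 2388 and 2445 (0.49 ± 0.17, adjusted p = 0.031). In each case 1 DEN rat reached into the range of the DEN-CA rats. Without scaling the differences were larger, 0.89 and 0.87, but not past the threshold (adjusted p = 0.056 and 0.065). Unscaled, they also carry any shift shared by all probe sets. The value at 1m, unchanged at 0.52, did not pass with only the groups of the contrast in the fit (adjusted p = 0.065), nor did that at 3m when the fit held a term for the B suffix (0.46, adjusted p = 0.058). Both also ended when single rats were left out. At 1m these were rats 4059 (0.39, adjusted p = 0.14), 4093 (0.44, adjusted p = 0.085) and 4094 (0.48, adjusted p = 0.056). At 3m they were rats 4063 (0.37, adjusted p = 0.16), 4064 (0.45, adjusted p = 0.085), 4095 (0.47, adjusted p = 0.073), 4098 (0.47, adjusted p = 0.055) and 4099 (0.48, adjusted p = 0.063). The mean over 5 times rose by 0.25 ± 0.07 (limma, adjusted p = 0.0054), and leaving out any 1 of the 50 rats kept it between 0.22 and 0.27. The difference from the CA effect without DEN, 0.15 ± 0.11, did not pass (adjusted p = 0.64).

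**Figure D2:**
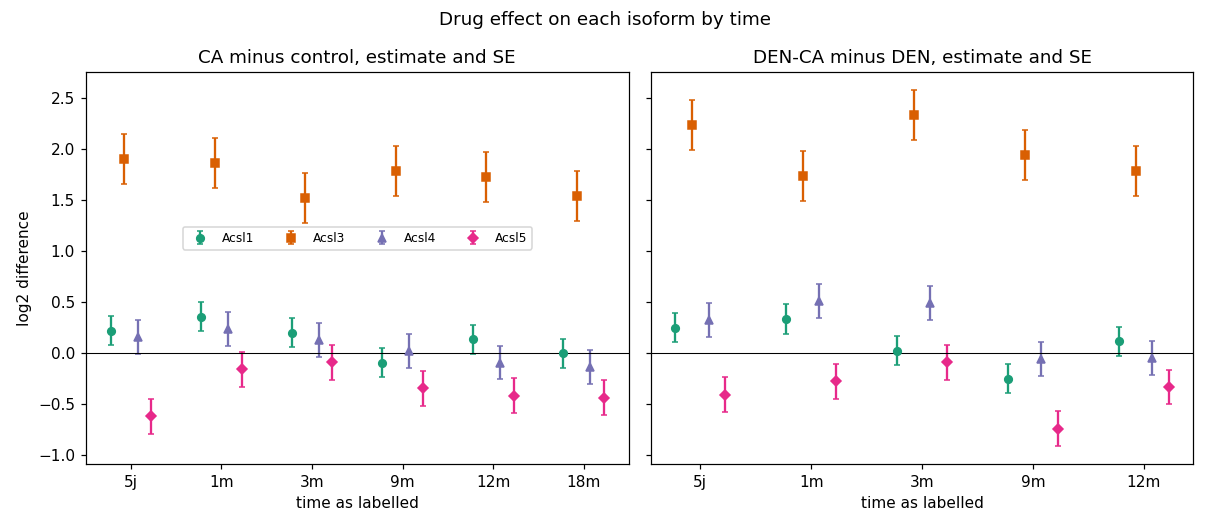
Estimated log2 difference (points) with its standard error (bars) for each isoform at each time as labelled, CA minus control on the left and DEN-CA minus DEN on the right. Acsl3 lies between 1.52 and 2.34 throughout, Acsl5 lies below 0 at all 11 times, and Acsl1 and Acsl4 lie on both sides of 0.

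Whether the isoforms differed from each other in their response was tested through the log2 ratio of 2 isoforms within an array, which does not depend on the scaling of arrays apart from the offset. The change in this ratio was tested for 6 pairs at 11 times with an exact two-sided permutation test, whose smallest possible p with 5 against 5 rats is 0.0079. Of the 66 tests 48 passed after adjustment over all of them. The ratio of Acsl3 to each other isoform rose in 33 of 33 tests, by 1.22 to 2.0 over Acsl4, by 1.32 to 2.32 over Acsl1 and by 1.61 to 2.69 over Acsl5 (each exact p = 0.0079, adjusted p = 0.012). The ratio of Acsl1 to Acsl5 was higher at all 11 times and passed at 7, and so did that of Acsl4 to Acsl5. Acsl1 and Acsl4 differed at 1 time, DEN-CA at 3m, where the ratio of Acsl1 to Acsl4 fell by 0.47 (exact p = 0.0079, adjusted p = 0.012). A ratio within an array shows unequal change and not which isoform kept its level.

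In groups labelled rev Acsl3 was far below its level in the drug groups without the label. At 18m CA rev rats measured 81.4, 85.3, 96.6 and 122 against 232 to 418 in CA rats without the label, and Acsl3 was lower by 1.59 ± 0.26 on the log2 scale (limma, adjusted p = 1.6e-06, 14.7% of probe sets called). Control rev rats measured 54.7, 65.7 and 72.3. All 4 CA rev rats were above all 3 control rev rats, but the difference of 0.44 ± 0.30 did not pass the test (limma, adjusted p = 0.70, 0.734% of probe sets called), and its 95% interval ran from -0.15 to 1.02. The CA effect with rev was smaller than without it by 1.11 ± 0.38, which did not pass (adjusted p = 0.13, 1.46% called). At 12m DEN-CA rev rats measured 64.7, 95.8, 100.2, 105 and 137, and DEN rev rats 64.2 at the lowest, 93.5 and 96.2 in the middle and 127 at the highest. These groups overlapped throughout and differed by 0.02 ± 0.23 (limma, adjusted p = 1.00, 0.121% of probe sets called; 556 had an unadjusted p under 0.05). DEN-CA rev rats were below DEN-CA rats without rev by 1.06 ± 0.24 (adjusted p = 0.0012, 12.8% called), with no overlap. The DEN-CA effect with rev was smaller by 1.77 ± 0.34 (limma, adjusted p = 0.00016, 2.30% called). DEN rats without rev measured 31.8 to 83.0 at 12m, so part of that difference lay between the DEN groups. Without scaling the lower level of DEN-CA rev rats was -0.56 (adjusted p = 0.15) and the difference of effects -1.35 (adjusted p = 0.15).

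Acsl5 was higher in drug groups with rev than in those without, but in the main fit it passed the test only at 18m. CA rev rats at 18m measured 3682, 3805, 3844 and 3855 and CA rats without rev 1716, 1969, 2455, 2524 and 2879.6. The groups did not overlap, and Acsl5 was higher by 0.74 ± 0.18 in CA rev rats (limma, adjusted p = 0.0019), but 0.32 without scaling (adjusted p = 0.53). Control rev rats measured 2854, 3665 and 4076, above and below the CA rev rats, with a difference of 0.12 ± 0.21 (adjusted p = 0.93). DEN-CA rev rats at 12m measured 2592, 2618, 2669.7, 2782 and 3287 against 1881, 1920.5, 2262, 2484 and 2554 without rev. They did not overlap either, but the difference of 0.33 ± 0.17 did not pass (limma, adjusted p = 0.20), except with array weights (0.38, adjusted p = 0.035) and without scaling (0.94, adjusted p = 0.015). Without scaling, Acsl1 and Acsl3 also moved up in this comparison, from -0.17 to 0.44 and from -1.06 to -0.56. The CA effect on Acsl5 with rev differed from that without by 0.56 ± 0.27 (limma, adjusted p = 0.40). For the DEN-CA effect this was 0.24 ± 0.24 (limma, adjusted p = 0.75), so no difference of effect was detected. Control rats at 18m averaged 3532 with rev and 3099 without. Acsl1 and Acsl4 passed in none of the 6 rev comparisons.

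Markers of other cell types moved with the rev label, and their part in the result was not tested. At 18m the macrophage sum was 8133 to 11952 in CA rev and 5789.8 to 6759 in CA rats, the cholangiocyte sum 314 to 360 and 498 to 629.8, and the acinar sum 499.6 to 577 and 848 to 1354. The stellate cell and fibroblast sum was 1968 to 2400 and 1342 to 1886. The T and NK cell sum was 697 to 1150 and 494 to 674, and the B cell sum 1371 to 2052 and 435.8 to 1110.5. None of these ranges overlapped, while those of the hepatocyte and endothelial sums did. The B cell sum held 2 genes and was nearly all Cd74, with a mean untagged signal of 1433. The other, Cd79b, averaged 20.9 and did not pass the filter. Control rats at 18m also separated by rev, with macrophage sums of 12418 to 16700 with it and 5205 to 12161 without. Their acinar sums were higher with rev, at 369 to 878 against 208 to 345. At 12m the endothelial sum was 2925 to 3449 in DEN-CA rev and 2050 to 2787 in DEN-CA rats, the stellate cell and fibroblast sum 2264 to 2968 and 1758 to 1779, the macrophage sum 6480.4 to 11676 and 4573 to 6278, the cholangiocyte sum 295 to 358 and 471 to 574, and the acinar sum 401 to 741 and 973 to 1354. These did not overlap either, while the hepatocyte, T and NK cell, and B cell sums did.

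**Figure D3:**
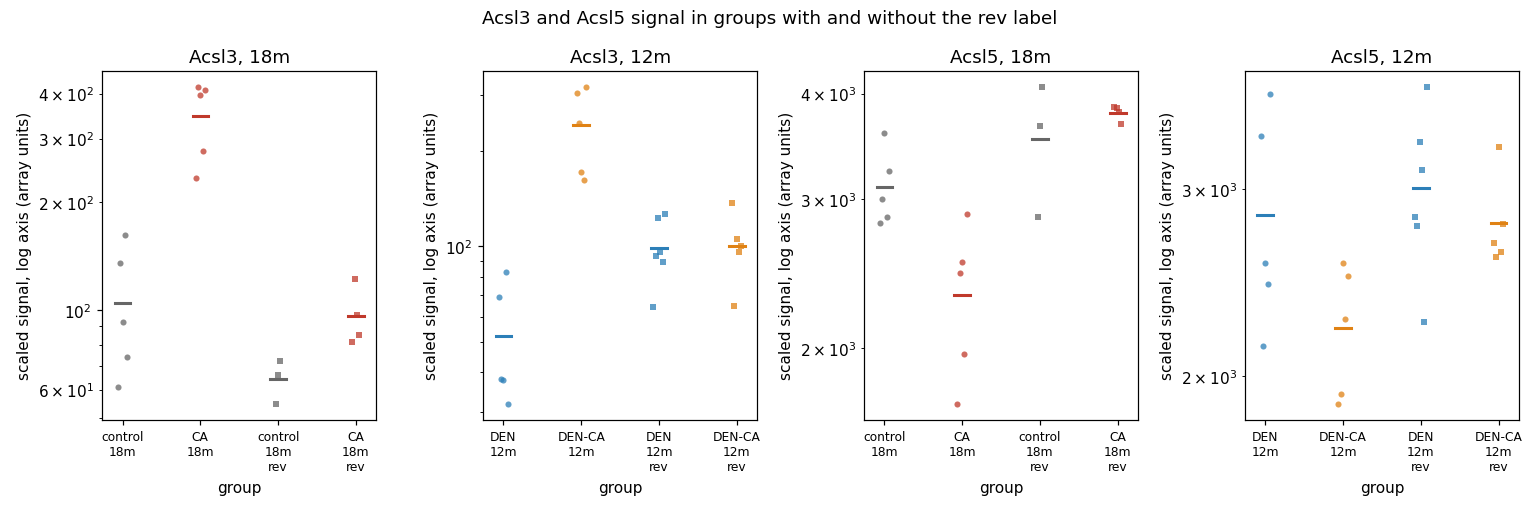
Signal of Acsl3 and Acsl5 in each rat (array units, log axis) for groups without rev (circles) and with rev (squares) at 18m and 12m, with the group mean as a bar. Acsl3 in CA rev rats reaches 122 at most against 232 to 418 in CA rats, and Acsl5 in CA rev rats starts at 3682, above all CA rats without rev.

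The 6 CA rats labelled 18 without a unit had Acsl3 signals from 149 to 272, with 183 and 219 in the middle, against 60.9 to 162 in controls at 18m. The groups overlapped, and Acsl3 was higher by 0.85 ± 0.23 (limma, adjusted p = 0.0035, 23.2% of probe sets called). Without scaling this was 0.53 (adjusted p = 0.27). Against CA rats at 18m the difference was -0.69 ± 0.23 (adjusted p = 0.052, 7.0% called). It passed with array weights (-0.72, adjusted p = 0.0065), with quantile normalisation (-0.68, 0.039), with the B suffix as a covariate (0.044), with only the groups of the contrast (0.012), with the stricter filter (0.037), with an offset of 99 (-0.55, 0.034), and without rat 4142 (-0.82, 0.030) or 4157 (-0.77, 0.042). Acsl1, Acsl4 and Acsl5 did not pass in either comparison. The fall of Acsl5 in the other CA groups was not seen here. Its mean was 2984.5 against 3099 in controls at 18m, a difference of -0.05 ± 0.16 (limma, adjusted p = 0.87). Acsl4 differed from control by -0.29, which passed with array weights (adjusted p = 0.048), with only the groups of the contrast (adjusted p = 0.038) and with quantile normalisation (-0.43, adjusted p = 0.0075), and Acsl5 differed from CA at 18m by 0.39, which passed with only the groups of the contrast (adjusted p = 0.033).

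DEN without CA left no detected difference in the 4 genes. At -8 the differences from control were 0.05 for Acsl1, 0.16 for Acsl3, -0.26 for Acsl4 and 0.26 for Acsl5, the lowest adjusted p being 0.53 (limma, 0.307% of probe sets called). Over the 5 later times the means were -0.07, -0.17, -0.09 and 0.00 (adjusted p = 1.00 for each, 0.0161% called, with 501 of 12393 probe sets at an unadjusted p under 0.05). Control livers changed with time in 2 of the 4 genes. Acsl5 had control means of 2211, 2137, 1819.9, 2856, 2606 and 3099 from 5j to 18m (moderated F, adjusted p = 0.0019, 11.3% of probe sets called). The 3m rats were lowest, from 1336 to 2419, and all 5 rats at 18m, from 2811 to 3595, were above them. Acsl4 had means of 2385, 2052, 1655, 2208, 1943 and 2861 (adjusted p = 0.0044), again lowest at 3m, and its 5 rats at 18m (2550.2 to 3151) were all above those at 3m (1416 to 1894). Acsl1 and Acsl3 did not pass (adjusted p = 0.31 and 0.29).

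In DEN-CA rats Acsl1, Acsl4 and Acsl5 were lower in TU sections than in the untagged section of the same rat, and Acsl3 did not pass the test. Acsl4 in the 7 rats ran from 1493 to 2440.1 with a median of 1981 in untagged sections and from 621 to 1287 with a median of 1083 in TU sections. All TU values were below all untagged values, and Acsl4 fell by 1.03 ± 0.22 (limma on within-rat differences, adjusted p = 0.0022). Acsl5 ran from 1344 to 2669.7 (median 1920.5) in untagged and from 865 to 2037 (median 987) in TU sections, lower in 7 of 7 rats, and fell by 0.80 ± 0.24 (adjusted p = 0.015). Acsl1 ran from 3493 to 6744 (median 5085) and from 2230.0 to 5982 (median 3101), lower in 7 of 7 rats, and fell by 0.55 ± 0.14 (adjusted p = 0.0074), with an adjusted p of 0.050 without scaling. This comparison called 29.7% of probe sets. Acsl3 ran from 137 to 425 (median 246) in untagged and from 204 to 566 (median 351) in TU sections, was higher in 4 of 7 rats, and differed by 0.38 ± 0.22 (adjusted p = 0.20). The rat with the widest gap was the DEN-CA rev rat 4111, at 137 in the untagged and 566 in the TU sections.

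In the CA arm no probe set was called (0%, with 2522 of 11566 at an unadjusted p under 0.05). Acsl5 in the 9 rats ran from 1162 to 3682 (median 2524) in untagged and from 820.3 to 2226 (median 1314) in TU sections. It was lower in 8 of 9 rats by up to 1.78 on the log2 scale, and higher by 0.92 in rat 4137. The mean over the 9 rats was -0.92 ± 0.21 (limma, adjusted p = 0.063). Acsl1 was lower in 8 of 9 rats (-0.49 ± 0.13, adjusted p = 0.069) and Acsl4 in 7 of 9 (-0.50 ± 0.20, adjusted p = 0.15), while Acsl3 was higher in 7 of 9 (0.32 ± 0.19, adjusted p = 0.35). In rat 4137 the untagged and TU signals were 4602 and 5771 for Acsl1, 487 and 329.9 for Acsl3, 1137 and 2186 for Acsl4 and 1162 and 2226 for Acsl5. Without this rat, a fit added after the data were seen, 2438 probe sets were called (21.1%), and Acsl1 (-0.59, adjusted p = 0.0011), Acsl4 (-0.67, adjusted p = 0.0078) and Acsl5 (-1.15, adjusted p = 7.5e-05) were past the threshold, and Acsl3 (0.43, adjusted p = 0.13) was not. Comparing TU and untagged sections without the replicate block gave Acsl5 an adjusted p of 0.012 and 366 calls. No difference between the 2 arms was called in any probe set (0%, 1766 at an unadjusted p under 0.05), the members' values being -0.06 for Acsl1, 0.06 for Acsl3, -0.53 for Acsl4 and 0.12 for Acsl5. Without rat 4137 these were 0.04, -0.05, -0.36 and 0.35, and again none passed (limma, lowest adjusted p = 0.49).

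**Figure D4:**
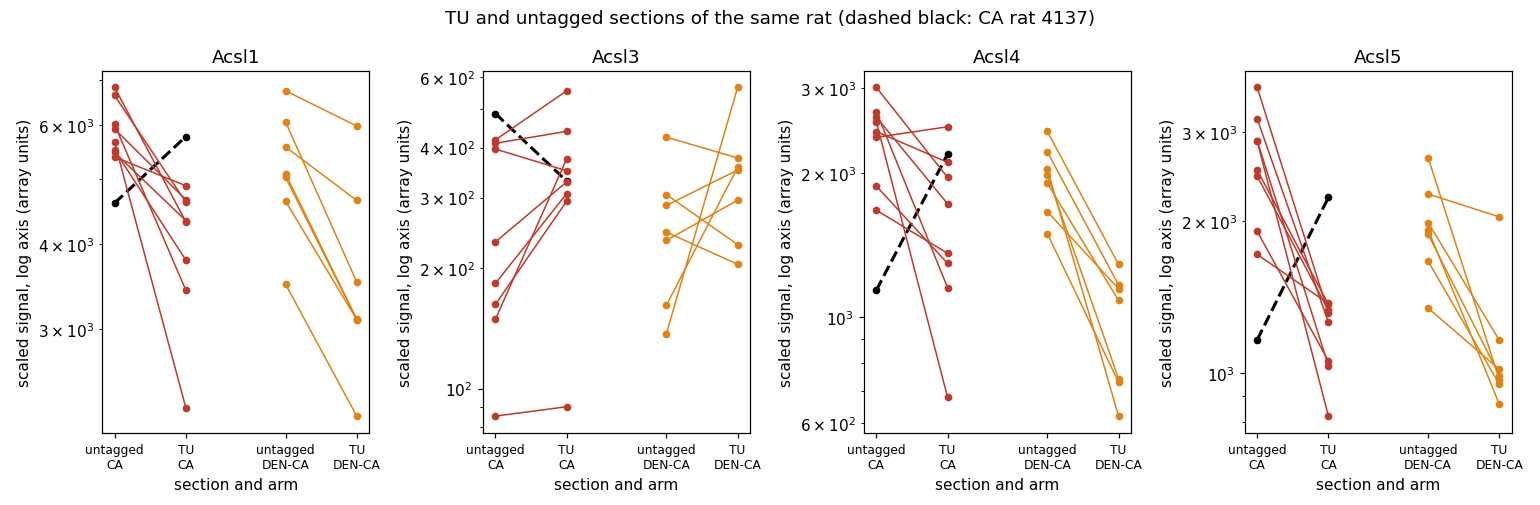
Signal of each isoform (array units, log axis) in the untagged and TU sections of the same rat, joined by a line, for 9 CA rats (red) and 7 DEN-CA rats (orange), with the mean of several TU sections where a rat had them. The dashed black line is CA rat 4137, which runs against most lines of its arm in all 4 panels, and the DEN-CA lines fall in all 7 rats for Acsl1, Acsl4 and Acsl5.

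Within rats, the ratio of Acsl3 to Acsl5 was higher in TU sections by 1.24 in the CA arm (exact two-sided sign-flip test, adjusted p = 0.047) and by 1.18 in the DEN-CA arm (exact adjusted p = 0.047). In all, 5 of 12 such ratio tests passed, and 8 of 12 without rat 4137. Levels of markers of other cell types moved with the section, and their part in the result was not tested. In DEN-CA rats the summed signal of 6 endothelial markers was lower in TU sections in 7 of 7 rats (2050 to 2977 untagged, 789 to 1381 TU, 4 of 6 genes fell), and that of 8 macrophage and Kupffer cell markers also in 7 of 7 (4573 to 11676 and 2424 to 6942, 6 of 8 fell). The sum of 8 pancreatic acinar markers was higher in 7 of 7 (401 to 1420.0 untagged, 1619 to 11319 TU, 3 of 4 tested rose). The 401 and the 11319 were both of rat 4111, of whose 2 TU sections 1 measured 21388. The TU sums of the other rats reached 2193 at most. The hepatocyte sum was lower in 4 of 7 DEN-CA rats and 2 of 11 hepatocyte markers fell. These gene counts in DEN-CA rats stand beside 29.7% of all probe sets called. The cholangiocyte and B cell sums were each lower in 1 of 7 DEN-CA rats, Cd74 giving nearly all of the B cell sum in untagged sections. The T and NK cell sum was lower in 6 of 7, and the stellate cell and fibroblast sum in 3 of 7. In the CA arm the hepatocyte sum was lower in 9 of 9 rats (91716 to 168770 untagged, 81472 to 109920 TU), the endothelial sum in 8 of 9 and the macrophage sum in 7 of 9, and the cholangiocyte sum was higher in 8 of 9 (344 to 855 untagged, 556 to 1219 TU). With all 9 rats no probe set was called, so no marker could pass. Without rat 4137, where 21.1% of all probe sets were called, 6 of 11 hepatocyte, 5 of 8 macrophage and 2 of 6 endothelial markers fell, and 4 of 11 stellate cell and fibroblast markers and 1 of 2 tested cholangiocyte markers rose.

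PERI sections were compared in 5 rats. No member passed against the untagged section (0% of probe sets called, 1 at an unadjusted p under 0.05), the differences being 0.01 for Acsl1, -0.05 for Acsl3, 0.26 for Acsl4 and 0.03 for Acsl5. Acsl3 measured 264, 274.0, 274.2, 348 and 401 in PERI sections and 161, 232, 418, 425 and 487 in the untagged sections of these rats, with full overlap. TU minus PERI differed by -0.27 for Acsl1, 0.28 for Acsl3, -0.69 for Acsl4 and -0.24 for Acsl5, and again none passed (0% called, 2580 at an unadjusted p under 0.05, lowest adjusted p of the members 0.16). Without rat 4137 the differences between PERI and untagged sections were -0.08, 0.13, 0.10 and -0.09, and those between TU and PERI -0.32, 0.29, -0.86 and -0.40, with no probe set called in either (26 and 3192 at an unadjusted p under 0.05).

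The level of Acsl3 over the 30 untagged groups ran from a mean of 52.0 in DEN rats at 12m to 514 in DEN-CA rats at 5j, a ratio of 9.88. Without rat 4087, left out after the data were seen, DEN-CA at 5j averaged 329.0, below DEN-CA at 3m (377) and CA at 9m (364), and the ratio of the highest to the lowest mean was 7.25. The lowest means are of control and DEN groups, in which Acsl3 exceeded the 40th percentile on 36 of 78 arrays. The ratio was 1.85 for Acsl1 (lowest in control rev rats at 18m, 4508, highest in CA rats at 5j, 8316), 1.76 for Acsl4 (DEN at -8, 1623, to control at 18m, 2861) and 2.63 for Acsl5 (CA at 5j, 1442, to CA rev at 18m, 3796). Neighbouring groups in these orders did not differ beyond the larger of their SDs, apart from 1 of 29 pairs for Acsl3. Within groups, rats high in Acsl4 were also high in Acsl5. Over the residuals of all untagged rats from their group means the correlation was r = 0.61 (rho = 0.54) for Acsl4 and Acsl5, 0.53 (rho = 0.50) for Acsl1 and Acsl4 and 0.46 (rho = 0.45) for Acsl1 and Acsl5. Each had a permutation p of 1e-05, the smallest that 100000 resamples can give, and 2e-05 after adjustment over 6 pairs. Leaving out the 2 rats farthest from the median gave 0.56, 0.48 and 0.45. Within arrays with the B suffix (41 rats) the values were 0.65, 0.40 and 0.30, and without it (97 rats) 0.64, 0.58 and 0.56, leaving out 10 rats that were alone in their group and suffix class. With quantile normalisation they were 0.39, 0.50 and 0.13, so the first and above all the last depend on the scaling. The median correlation of Acsl1, Acsl4 and Acsl5 with all tested probe sets was 0.07 to 0.12 in the main scaling. The pairs with Acsl3 gave 0.03 to 0.11 (permutation, adjusted p = 0.36 to 0.74).

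By Pearson's r over the 30 group means, the genes most like Acsl3 were Aqp3, a glycerol channel (0.95), Me1, the cytosolic malic enzyme (0.95), and Cpt1b, a carnitine palmitoyltransferase (0.95). For Acsl1 they were the mitochondrial aminotransferase Got2 (0.81), the beta-oxidation enzyme Hadh (0.81) and the peroxisomal Hsd17b4 (0.79). For Acsl4 they were Rab9a (0.79), Gtf3c3 (0.79) and the bicarbonate transporter Slc4a4 (0.78). For Acsl5 they were Icmt (0.90), Plaat3 (0.89) and Jkamp (0.87). These groups share the drug contrast, so the values are a description.

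The pathway around the isoforms was described by lists of genes. Of 13 tested genes among the other acyl-CoA synthetases, 6 rose and 4 fell in the CA mean, with a median of 0.10 against -0.02 over all probe sets, and 6 rose and 2 fell in the DEN-CA mean. Over all probe sets, 40.2% were called in the CA mean (2186 higher, 2790.0 lower) and 35.1% in the DEN-CA mean (2328 higher, 2018 lower), the shares against which each count of these lists is read. Slc27a5, the liver's bile acyl-CoA synthetase, fell by 1.69, while Slc27a2, a very-long-chain synthetase of peroxisomes, rose by 0.46 and Acsf3, a mitochondrial malonyl-CoA synthetase, by 0.49. Of 13 genes of acyl-CoA binding and hydrolysis, 7 rose and 3 fell (median 0.19). The thioesterase Acot1, whose probe set may be shared with near-identical relatives, rose by 3.56, Acot8 of peroxisomes by 1.65 and Acot2 by 1.43. Of 14 genes that carry acyl-CoA into oxidation, 11 rose and 2 fell (median 0.33), among them Ehhadh of peroxisomes (2.10), Cpt1b (2.02) and Hadha of the mitochondrial trifunctional protein (0.78).

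Of 19 glycerolipid and sterol ester genes, 3 rose and 5 fell (median -0.01), a share near the 40.2% called over all probe sets, with Lpcat3, which remodels phospholipids, rising by 0.81, Dgat1 rising by 0.45 and Dgat2 falling by 0.49, both enzymes of the last step to triglyceride. Of 13 genes of fatty acid synthesis, elongation and desaturation, 9 rose and 3 fell (median 0.57), led by the desaturases Scd2 (3.66), Fads2 (2.01) and Fads1 (0.97). Of 9 regulators, 3 rose and 2 fell, and Srebf1, which encodes SREBP-1, rose by 1.58, Pparg rose by 0.25 and Nr1h4, the bile acid receptor FXR, fell by 0.33. In DEN-CA rats the counts of genes that rose and fell were 8 and 2 for binding and hydrolysis, 9 and 3 for oxidation, 3 and 4 for glycerolipids, 9 and 2 for fatty acid synthesis and 2 and 0 for regulators. In TU sections of DEN-CA rats, where 29.7% of all probe sets were called and 2101 of the 3433 calls were lower, 0 rose and 9 fell of 14 in oxidation and 1 rose and 6 fell of 13 among the other synthetases.

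Markers of other cell types also differed between untagged arms, and their part in the results was not tested. The summed signal of 8 macrophage and Kupffer cell markers ran from 4849 to 12161 in control and from 3069 to 6912 in CA rats, and 7 of the 8 fell in the CA mean and 8 of 8 in the DEN-CA mean, where 40.2% and 35.1% of all probe sets were called. The sum of 5 cholangiocyte markers was higher with the drug, at 177 to 381 in control and 317 to 855 in CA rats, and at 196 to 373 in DEN and 375 to 647 in DEN-CA rats without overlap, with 1 of 3 tested markers risen in each mean. The hepatocyte sum ran from 89882 to 167310 in control and from 73496 to 240790 in CA rats, with 1 of 11 markers risen and 1 fallen, against 0 risen and 7 fallen in DEN-CA rats. Of 11 stellate cell and fibroblast markers, 6 fell in the CA mean and 7 in the DEN-CA mean, and none rose. The acinar sum was higher, at 714 to 1786 against 208 to 911, with 1 of 4 tested genes past the test.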

How the data were processed

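Total RNA of rat liver sections was measured on Affymetrix arrays, 1 array per section. The deposited values are intensities on a linear scale, made with MAS5 per the submitters' processing notes; its version, scaling target and settings are not given in the sources used here. Probe sets were named through the platform annotation: 12783 had 1 gene, 312 several and 2827 none, and 12748 were updated by Entrez identifier. No arrays held identical values, and the highest correlation between arrays was 0.987.

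Because the ratio of the 90th to the 10th percentile of array medians was 2.13, arrays were scaled to the median of the medians, an offset of 25 was added and log2 taken. This hides any shift shared by most genes. A probe set was kept where 3 arrays or more held it above their 40th percentile, which left 12393 in untagged sections, 11566 for TU, 10174 for PERI and 10516 for TU against PERI. limma 3.58.1 in R 4.3.3 (lmFit, eBayes with trend, two-sided, Benjamini-Hochberg) fitted 1 mean per untagged group with 118 residual degrees of freedom. Tagged sections were averaged per rat and the untagged section subtracted, with 14 residual degrees of freedom for TU and 4 for PERI. The pairing comes from the same rat number in the title, and deviations of the paired sections correlated with a median of 0.23 (-0.56 to 0.47, above 0.1 in 12 of 16 rats). Ratios were tested by exact permutation and sign flips in R, and correlations by permutation in Python 3.11.15 with numpy 2.4.6 and scipy 1.17.1. The code was tested on simulated data. The number of arrays limits the precision.

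The members and gene lists were chosen with earlier results of these data known. Named genes were the members, the 3 genes of each pathway list with the smallest p in the mean CA effect, and the 3 genes most correlated with each member over group means. Alternatives were offsets of 6 and 99, no scaling, quantile normalisation, a filter at the 70th percentile or none, a covariate for the B suffix, smaller fits, array weights, the other Acsl1 probe set, no replicate block, TU without rev rats, and leaving out each rat. RefSeq promoter windows (GRCr8) were searched for motifs; protein sequences were not used here.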

Additional observations from a re-analysis of the deposited data

Results flagged for a closer look

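Among 124 groups of 4 to 10 values, single values far from the rest of their group were found in 8, where chance gives about 1 in 20. On the log2 scale, Acsl1 measured 13.06 in control rat 4019 at 3m (nearest other rat 12.39), 12.82 in DEN rev rat 4082 at 12m (nearest 12.51) and 11.78 in DEN-CA rev rat 4111 at 12m (nearest 12.54). Acsl3 measured 6.01 in DEN rat 4059 at 1m (nearest 6.56), the rat without which Acsl4 at that time was not past the threshold. Acsl4 measured 11.33 in CA rev rat 4151 at 18m (nearest 10.94) and 10.65 in control rat 4009 at 5j (nearest 11.30). Acsl5 measured 10.38 in DEN-CA rat 4090 at 1m (nearest 10.91). In the CA arm the Acsl5 difference between TU and untagged section was 0.92 in rat 4137, while the nearest other rat was at -0.48 and the lowest at -1.78.

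An effect also differed between groups by its own test. The DEN-CA minus DEN difference of Acsl3 at 12m was smaller in rev rats, by -1.77 on the log2 scale (limma interaction, adjusted p = 0.00016).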

How the results depend on the processing

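The rise of Acsl3 at each of 11 times and in both means was past the threshold in 336 of 337 alternative values, from 0.68 to 2.67. The exception was CA at 3m without scaling (0.68, adjusted p = 0.052), where the median of all probe sets was -0.71. Without scaling that median ran from -0.71 to 0.52 over the comparisons, so unscaled values carry a shift of all probe sets.

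Without scaling, Acsl1 gave -0.24 for CA labelled 18 minus CA 18m, -0.26 against control 18m, -0.088 in the CA mean, 0.34 for the DEN-CA minus the CA effect, 0.34 for the difference of DEN-CA effects with and without rev, 0.23 for DEN-CA rev minus DEN rev, 0.44 for DEN-CA rev minus DEN-CA and -0.61 for TU in DEN-CA rats (adjusted p = 0.050). Acsl3 gave -0.56 for DEN-CA rev minus DEN-CA (adjusted p = 0.15) and -0.32 for the TU difference between arms. Acsl4 gave -0.17 in the CA mean, 0.32 for the difference of effects with rev and 0.051 for DEN-CA rev minus DEN rev. Acsl5 gave 0.32 for CA rev minus CA (adjusted p = 0.53), -0.050 for DEN, 0.36 for the DEN-CA minus the CA effect, -0.22 in the DEN-CA mean (adjusted p = 0.24), 0.19 for DEN-CA rev minus DEN rev, 0.94 for DEN-CA rev minus DEN-CA (adjusted p = 0.015) and -0.30 for the TU difference between arms. Calls were 2393 in the DEN-CA mean (4346 with scaling), 25 for TU in CA rats and 1482 for TU in DEN-CA rats (3433 with scaling). Relative to the median shift, Acsl5 was -0.34 in the DEN-CA mean and 0.66 for CA rev minus CA.

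With quantile normalisation Acsl1 gave -0.21 and -0.16 for CA labelled 18 against CA and control, -0.25 for CA rev minus CA (adjusted p = 0.044), 0.04 for the difference of arms and 0.10 in the DEN-CA mean (adjusted p = 0.032), and Acsl4 gave -0.021 for DEN-CA rev minus DEN-CA. With array weights Acsl1 gave 0.16 in the CA mean (adjusted p = 0.013) and 0.071 for DEN-CA rev minus DEN rev, Acsl3 gave -0.021 there, Acsl4 gave -0.35 for CA rev minus CA (adjusted p = 0.048) and -0.013 for CA rev minus control rev, and Acsl5 gave -0.056 for DEN and 0.38 for DEN-CA rev minus DEN-CA (adjusted p = 0.035). The other Acsl1 probe set gave -0.067 for CA labelled 18 minus CA 18m and 0.15 in the CA mean (adjusted p = 0.031). With the filter at the 70th percentile, Acsl1 passed in the CA mean (0.14) and, for TU in CA rats, Acsl1 (-0.49) and Acsl5 (-0.92) passed among 410 calls. With an offset of 99 the same TU values were -0.48 and -0.88, both past the threshold, among 117 calls.

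Without the replicate block that pairs sections of a rat, Acsl5 for TU in CA rats was -0.92 (adjusted p = 0.012) and 366 probe sets were called; it changed no other call of a member. Without the rev rats the Acsl3 TU difference between arms was -0.22.

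Leaving out 1 rat at a time gave ranges of 0.12 to 0.16 for Acsl1 in the CA mean, -0.11 to 0.10 for Acsl1 and -0.081 to 0.13 for Acsl3 in DEN-CA rev minus DEN rev, -0.13 to 0.28 for Acsl4 and -0.026 to 0.23 for Acsl5 in CA rev minus control rev, -0.052 to 0.16 for Acsl4 in DEN-CA rev minus DEN-CA, -0.083 to 0.0051 for Acsl5 in CA labelled 18 minus control and -0.028 to 0.034 for Acsl5 under DEN. For TU in CA rats they were -0.59 to -0.39 for Acsl1, -0.67 to -0.32 for Acsl4 and -1.15 to -0.81 for Acsl5, with 0 to 2438 calls. Of 33 pair changes of isoforms with Acsl3, none changed its call with an offset of 6 or 99, and 1 uncalled TU change reversed (Acsl1 over Acsl4 in CA rats, 0.01 to -0.01). The cause of these dependences was not tested. Acsl3 was above the 40th percentile of its array on 36 of 78 control and DEN arrays, so the size of its fold depends on the offset.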
